A study of Mus musculus with 4 samples.

Results

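The genes described here are 43 genes by which hepatocytes, the main cell type of the liver, make plasma proteins and liver enzymes. They were chosen by name as a gauge of hepatocyte RNA in the libraries. Of the 43 genes, 41 were found among the 24706 genes measured, and levels of Saa1 and Saa2 were not analysed here. Saa1 and Saa2 enter only the promoter counts below. The 41 genes were 6 acute-phase genes (Hp, Orm1, Hpx, Fga, Fgb and Fgg), 9 plasma carriers, 8 apolipoprotein genes with Saa4, 11 genes of clotting and protease inhibition and 7 liver enzymes. Those whose mean over the libraries reached 1 FPKM, 25 genes, were tested, and the other 16 are given by their values. FPKM are reads scaled by the length of the gene and by the reads counted in the library, so that levels can be compared between genes.

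The data are 4 RNA-seq libraries labelled as myeloid cells of mouse fetal liver, 2 of them wt and 2 cko, with between 17691500 and 22212407 counted reads each. In the study, wt stands for PD-1f/f mice, in which LoxP sites flank an exon of Pdcd1, the gene of the inhibitory receptor PD-1, and cko for PD-1f/f mice that also carry LysM-Cre, a Cre recombinase made from the Lyz2 locus in myeloid cells, so that both groups carry the floxed allele. The study's results describe CD11b+ cells sorted from the livers of newborn pups, whereas its methods speak of RNA from fetal livers and of wild-type controls, and these accounts could not be reconciled. No source says whether the libraries of a group came from separate animals. In wt replicates 1 and 2, Xist was at 4.91 and 0.0119 FPKM and the Y-linked Ddx3y at 0.00866 and 24.9. The wt libraries were therefore not repeats of the same RNA. Whether the cko libraries came from separate animals was not tested. The p-values measure the spread between these libraries, which within cko may be technical.

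The labels were checked first. Pdcd1 was at 28.5 and 34.7 FPKM in the wt libraries and at 17.1 and 21.4 in the cko libraries, and Lyz2, which carries Cre in the cko mice, was at 31306 and 32147 FPKM against 10422 and 8127. All 5 myeloid genes of a list of sort markers were tested, and Itgam, which encodes CD11b, was at 48.5 to 54.3 FPKM. The 15 neutrophil genes together summed to between 93732 and 163287 FPKM per library. By contrast, none of 14 hepatocyte transcription factor genes exceeded 1.09 FPKM in any library, and Hnf4a was at 0.131 and 0.0880 FPKM in the wt libraries and at 0 in both cko libraries. Wt replicate 2 was the library with Y-linked transcripts (Ddx3y at 24.9 FPKM, against at most 0.00866 elsewhere), while Xist was at 0.0119 FPKM there and at 4.91 to 7.98 in the others. The sex of the cells and this library therefore cannot be told apart.

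Hepatocytes secrete most of the proteins of blood plasma, among them albumin and other carriers, apolipoproteins, clotting factors and protease inhibitors, and they hold the enzymes of the urea cycle, amino acid breakdown and glucose synthesis. In the acute-phase response, cytokines of the interleukin-6 family act on hepatocytes through STAT3 and raise the synthesis of haptoglobin, orosomucoid, fibrinogen, hemopexin and serum amyloid A. Some acute-phase proteins are not made by hepatocytes alone, and maturing neutrophils are known to make and store haptoglobin and orosomucoid. Around birth the liver is also a site of blood formation, where hepatocytes lie next to developing red cells and granulocytes. In RNA of many cells, fewer hepatocytes and less of a transcript per hepatocyte cannot be told apart.

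The stretches before the starts of Alb, Fabp1 and Apoa1 are shown because Alb is the reference for hepatocyte RNA below and the other two are the members that passed a threshold. They were taken from RefSeq (GRCm38.p6), end where the annotated gene begins or earlier, and read 5′ to 3′ on the plus strand, with GTTAAT or its reverse complement, part of the site of the hepatocyte factor HNF1, in capitals.
Alb, chr5:90460620-90460869: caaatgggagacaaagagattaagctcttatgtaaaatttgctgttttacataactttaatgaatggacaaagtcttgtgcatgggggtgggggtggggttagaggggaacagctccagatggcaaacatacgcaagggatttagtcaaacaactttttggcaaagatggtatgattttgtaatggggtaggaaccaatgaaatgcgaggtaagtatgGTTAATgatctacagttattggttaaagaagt
Fabp1, chr6:71199629-71199826: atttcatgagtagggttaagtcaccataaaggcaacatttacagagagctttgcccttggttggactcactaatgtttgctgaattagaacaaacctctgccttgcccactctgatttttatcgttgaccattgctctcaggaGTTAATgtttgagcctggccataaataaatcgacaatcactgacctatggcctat
Apoa1, chr9:46228380-46228579: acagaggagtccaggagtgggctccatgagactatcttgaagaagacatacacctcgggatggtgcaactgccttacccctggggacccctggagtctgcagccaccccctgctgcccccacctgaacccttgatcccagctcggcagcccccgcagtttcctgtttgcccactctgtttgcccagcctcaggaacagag
In the 250 bases before the RefSeq start GTTAAT began 32 bases before the start in Alb and 107 bases before it in Fabp1, and Apoa1 held none. Promoter sequences were matched for 33 of the 43 members, and GTTAAT on either strand was found in 11 of them (33.3%) against 6.43% of the 32851 promoter windows of the same length. CAAAGNNCA, the letters of an HNF4 repeat, was found in 6 of the 33 (18.2%) against 5.49% of all windows, and TTNCNNAA, the letters of a C/EBP site, in 21 (63.6%) against 36.9%. Members were counted by gene and the background by window, so a member with several windows would have more chances of a match. These matches describe letters and not binding.

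The 41 genes did not form 1 pattern. Hp was far above all the others and, with Orm1, was at higher levels in both cko libraries, whereas the other plasma protein and enzyme genes were at lower levels, whose sum was highest in wt replicate 2 and lower in both cko libraries than in either wt library. Hp alone took 85.3% and 78.9% of the reads of the 41 genes in the wt libraries and 91.5% and 89.0% in the cko libraries. Without Hp and Orm1, the other 39 genes took 255 and 416 RPM, reads relative to the library's total without regard to length, in wt replicates 1 and 2 and 201 and 235 in cko replicates 1 and 2. A sum over all 41 genes was higher in the cko libraries (2929 and 2607 RPM against 2005 and 2133), and the sum without those 2 genes was lower.

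**Figure D1:**
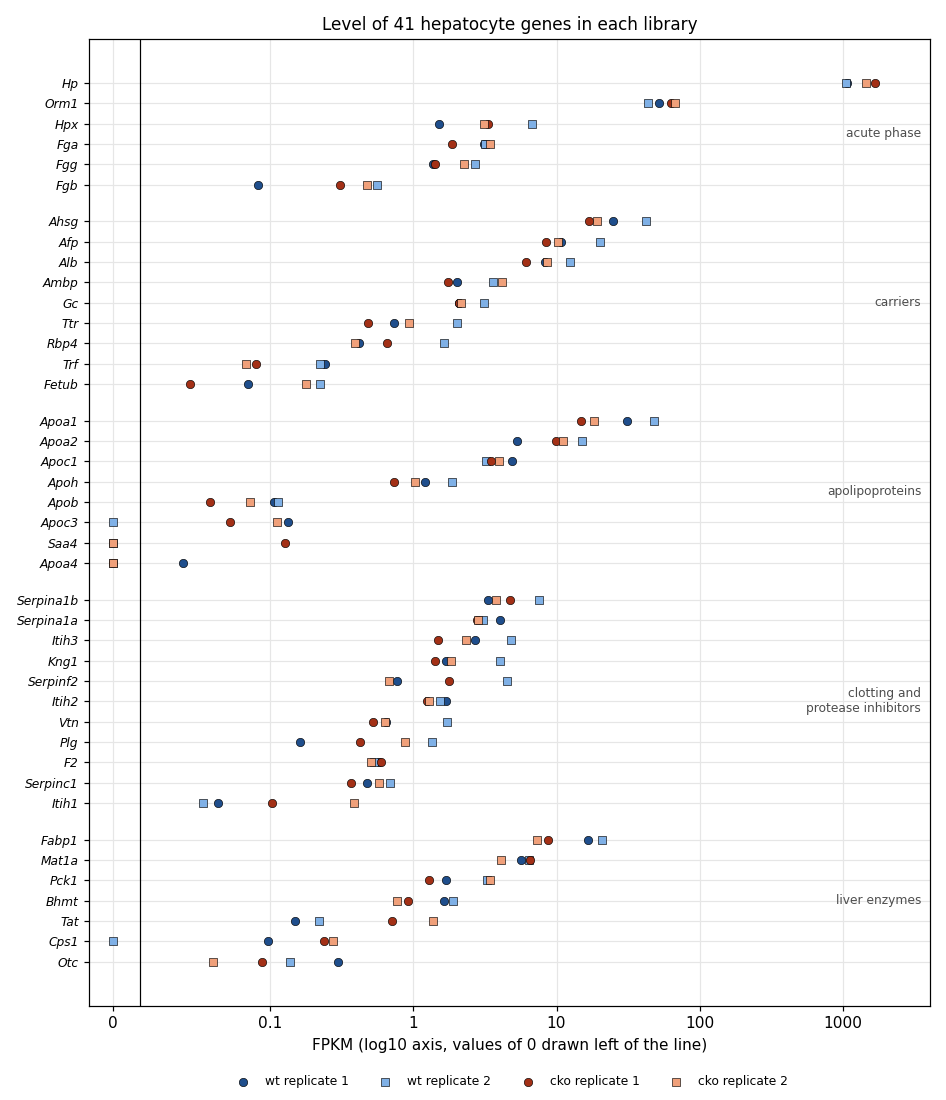
FPKM (log10 axis) of the 41 genes in each of the 4 libraries, by role, with circles for replicate 1 and squares for replicate 2, wt in blue and cko in red; values of 0 lie left of the vertical line, where points can cover each other. Hp lies between 1048 and 1668 FPKM and the next gene, Orm1, between 43.5 and 67.4, and the light blue squares of wt replicate 2 are the rightmost in most rows.

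Hp encodes haptoglobin, which binds free haemoglobin, and lies on the minus strand of chromosome 8 from 109575128 to 109579172 (GRCm38, as all positions given here). It was at 1064 and 1048 FPKM in wt replicates 1 and 2 and at 1668 and 1445 in cko replicates 1 and 2, which rests on 31685 to 50214 reads per library and placed it 27th of the 24706 genes by mean level. Both cko libraries lay above both wt libraries, and the wt libraries lay close together. The difference was 0.56 on the log2 scale of FPKM + 1 (SE 0.14, unadjusted p = 0.00983, adjusted p = 0.214, limma), a ratio of mean FPKM of 1.47. It thus stayed under the size that either threshold of the study asks for, a log2 difference of 1.

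Orm1 encodes orosomucoid 1, an acid glycoprotein that binds drugs and lipids, and lies on chromosome 4 from 63344560 to 63348163. It was at 52.0 and 43.5 FPKM in the wt libraries and at 63.0 and 67.4 in the cko libraries, with 634 to 924 reads per library. The groups again did not overlap, with a log2 difference of 0.45 (SE 0.15, unadjusted p = 0.0305, adjusted p = 0.265, limma). Of its 50-base stretches 20.4% also occur in other genes, foremost its relatives Orm2 and Orm3, so reads may be split between them. Orm3 was at 3.44 and 4.95 FPKM in wt and 6.97 and 5.996 in cko, and Orm2 was at 3.49 and 3.84 against 5.58 and 3.79, with overlap.

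The other acute-phase members were at low levels without a common direction. Hpx, whose product hemopexin binds heme, was at 1.502 and 6.73 FPKM in wt and 3.35 and 3.13 in cko, so that the wt libraries enclosed both cko libraries. Fga, the fibrinogen alpha chain, was at 3.11 and 3.16 against 1.86 and 3.46 FPKM. Fgg, the gamma chain, was at 1.38 and 2.72 against 1.43 and 2.27 FPKM. In all 3 genes the groups overlapped, with log2 differences of -0.05 (SE 0.52), -0.21 (SE 0.27) and -0.08 (SE 0.31) and adjusted p-values of 0.970, 0.714 and 0.924 (limma). Fgb, the beta chain, was not tested and had 7 and 40 reads in the wt libraries and 22 and 32 in the cko libraries. The 3 fibrinogen genes lie side by side on chromosome 3, with gaps of 11.03 and 6.51 kb between their annotated ends. Set against Alb in the same library, Fga and Fgg stayed between 0.165 and 0.406 of its FPKM, whereas Hp was at 127, 84.5, 272 and 170 times and Orm1 at 6.22, 3.50, 10.3 and 7.91 times the FPKM of Alb in wt replicates 1 and 2 and cko replicates 1 and 2. Both ratios were lowest in wt replicate 2 and highest in cko replicate 1, the libraries in which Alb itself was highest and lowest.

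**Figure D2:**
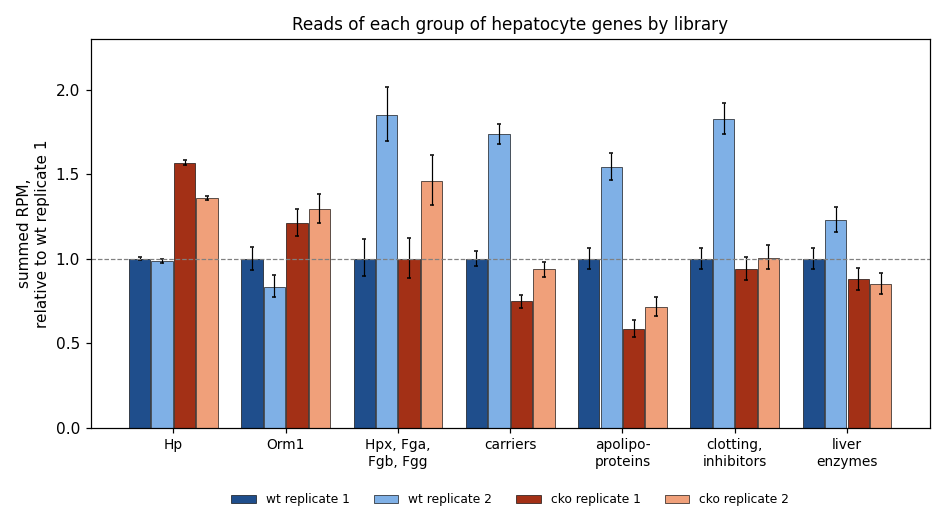
Summed share of the counted reads of each group of genes, divided by the value in wt replicate 1 (dashed line at 1), with 1 bar per library and 95% Clopper-Pearson intervals of the count, which cover counting error only and leave out the error of the reference. Hp and Orm1 are highest in the cko libraries, while the carriers, apolipoproteins and liver enzymes are highest in wt replicate 2 and lowest in the cko libraries.

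Among the plasma carriers, Ahsg, Afp and Alb had the highest levels. Ahsg encodes fetuin-A, a calcium-binding glycoprotein abundant in fetal plasma, and was at 24.6 and 41.95 FPKM in wt and at 16.7 and 19.2 in cko. Afp encodes alpha-fetoprotein, the fetal counterpart of albumin, and was at 10.7 and 20.2 FPKM against 8.46 and 10.2. Alb, which encodes albumin and spans 90460897 to 90476602 on chromosome 5, was at 8.36 and 12.4 FPKM against 6.13 and 8.52, with 269 to 547 reads per library. Wt replicate 2 was highest in each of the 3. The groups did not overlap for Ahsg and Afp, whereas cko replicate 2 slightly exceeded wt replicate 1 for Alb. The log2 differences were -0.81 (SE 0.27, adjusted p = 0.254) for Ahsg, -0.62 (SE 0.30, adjusted p = 0.372) for Afp and -0.44 (SE 0.25, adjusted p = 0.420) for Alb, and none passed a threshold in limma. Without wt replicate 1 the differences of Ahsg and Afp became -1.18 and -1.04 and passed the unadjusted threshold described below, whereas without wt replicate 2 they were -0.44 and -0.19 and that of Alb was -0.18.

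The remaining carriers were low. Gc, the vitamin D binding protein, was at 2.10 and 3.14 FPKM in wt and 2.08 and 2.14 in cko. Ambp, the precursor of alpha-1-microglobulin and bikunin, was at 2.01 and 3.58 against 1.74 and 4.17 FPKM. Ttr, the thyroid hormone carrier transthyretin, was at 0.739 and 2.00 against 0.481 and 0.927 FPKM, on 11 to 46 reads. Groups overlapped in all 3, and their log2 differences were -0.20, 0.02 and -0.44. Rbp4, the retinol carrier, had 12 and 40 reads in wt and 16 and 9 in cko. Fetub, a relative of Ahsg that lies 18.9 kb from it on chromosome 16, had 3 and 8 against 1 and 6 reads. Trf, which encodes transferrin, had 18 and 14 against 5 and 4 reads, so that the cko libraries lay below, and 59.4% of its 50-base stretches also occur elsewhere, mainly in the overlapping Gm20425, at no more than 4 reads in any library. Alb and Afp, neighbours 14.1 kb apart on chromosome 5, kept a ratio of Afp to Alb between 1.198 and 1.63 in the 4 libraries.

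Apoa1, the main apolipoprotein of high-density lipoprotein, was the member with the largest negative difference among the 25 tested. The gene spans 46228580 to 46230466 on chromosome 9, and its annotated exons merge into 3 blocks. It was at 30.9 and 48.1 FPKM in wt replicates 1 and 2 and at 14.8 and 18.4 in cko replicates 1 and 2, from 848, 1119, 343 and 402 reads. Both cko libraries lay below both wt libraries. The log2 difference was -1.18 (SE 0.25, unadjusted p = 0.00389, adjusted p = 0.206, limma), and the mean FPKM in cko was 0.42 of that in wt. The groups also stayed apart relative to Alb, with ratios of 3.69 and 3.88 in wt and 2.42 and 2.16 in cko.

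The other apolipoproteins had smaller or opposite differences or few reads. Apoa2, the second protein of high-density lipoprotein, was at 5.28 and 14.9 FPKM in wt and at 9.94 and 11.2 in cko, with a log2 difference of 0.20 (SE 0.43, adjusted p = 0.841, limma). Apoc1 was at 4.90 and 3.21 against 3.51 and 3.95 FPKM, and was lowest in wt replicate 2. Apoh, beta-2-glycoprotein I, was at 1.21 and 1.87 against 0.736 and 1.03 FPKM without overlap, on 22 to 56 reads and with Prkca overlapping its span, with a log2 difference of -0.42 (SE 0.27, adjusted p = 0.466, limma). Apob, the protein of very-low-density lipoprotein, had 33 and 30 reads in wt against 10 and 18 in cko, also without overlap (log2 difference of -1.04 by voom, SE 0.80, adjusted p = 0.569), which over its long transcript came to at most 0.114 FPKM. Apoc3 had 3, 0, 1 and 2 reads in wt replicates 1 and 2 and cko replicates 1 and 2. Apoa4 had 1 read in wt replicate 1 and none elsewhere, and Saa4 had 5 reads in cko replicate 1 and none elsewhere, where a count of 0, taken to allow up to 3 reads, allows 0.135 to 0.170 RPM. Apoa1, Apoc3 and Apoa4 lie in a row on chromosome 9 with gaps of 2.47 and 5.06 kb, and Apoc3 and Apoa4 were at no more than 0.133 FPKM in any library.

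Of the genes of clotting and protease inhibition, Serpina1b and Serpina1a, which encode alpha-1-antitrypsin, were the highest. Serpina1b was at 3.34 and 7.55 FPKM in wt and 4.71 and 3.79 in cko, and Serpina1a was at 4.03 and 3.07 against 2.80 and 2.84. Wt replicate 2 was highest for Serpina1b and wt replicate 1 for Serpina1a. Because 29.5% and 57.6% of their 50-base stretches also occur in other genes, mostly their own family, reads from those stretches may be divided between them. The relative Serpina1e was at 2.70 and 5.29 FPKM against 6.76 and 6.22, higher in both cko libraries, and Serpina1d at 2.68 and 2.63 against 2.64 and 4.58.

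Itih3, a heavy chain of the inter-alpha-trypsin inhibitors that bind hyaluronan, was at 2.72 and 4.81 FPKM in wt and at 1.497 and 2.35 in cko. Its groups did not overlap, with a log2 difference of -0.68 (SE 0.30, adjusted p = 0.332, limma). Itih2, a related heavy chain, was at 1.70 and 1.54 against 1.24 and 1.30 FPKM, also without overlap, with a log2 difference of -0.21 (SE 0.23). Itih1, another heavy chain, had only 3 and 2 reads in wt and 6 and 21 in cko, and lies 5.59 kb from Itih3 on chromosome 14. Kng1, from which bradykinin is cut, was at 1.70 and 4.02 against 1.42 and 1.84 FPKM, 17.2% of its 50-base stretches also occurring elsewhere, mainly in Kng2, and Serpinf2, the plasmin inhibitor, was at 0.775 and 4.53 against 1.77 and 0.681. In both, wt replicate 2 stood above the other 3 libraries, which overlapped, and the log2 differences were -0.49 (SE 0.34) and -0.54 (SE 0.58).

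The low members of this group followed no common order. Vtn, the adhesion protein vitronectin, had 29 and 66 reads in wt and 20 and 23 in cko, the cko libraries lying below. By FPKM, wt replicate 1 and cko replicate 2 were nearly equal, at 0.643 and 0.640. Plg, plasminogen, had 10 and 70 against 22 and 43 reads. F2, prothrombin, had 59 and 46 against 51 and 41 reads and stayed between 0.504 and 0.592 FPKM in all 4 libraries. Serpinc1, antithrombin, had 91 and 110 against 59 and 87 reads. By FPKM its groups overlapped, at 0.479 and 0.684 in wt and 0.368 and 0.575 in cko. Its annotated span overlaps Zbtb37 and Gm37072.

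Among the liver enzymes, Fabp1, the fatty acid binding protein of liver that was listed with them, had the lowest p-value of the 25 members tested. The gene spans 71199827 to 71205023 on chromosome 6, and its annotated exons merge into 4 blocks. It was at 16.5 and 20.7 FPKM in wt replicates 1 and 2 and at 8.78 and 7.26 in cko replicates 1 and 2, from 203, 215, 91 and 71 reads. Both cko libraries lay below both wt libraries by more than the gap within either group. The log2 difference was -1.12 (SE 0.19, unadjusted p = 0.00134, adjusted p = 0.183, limma), and the mean FPKM in cko was 0.43 of that in wt.

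Mat1a, which makes S-adenosylmethionine, was at 5.67 and 6.45 FPKM in wt and at 6.52 and 4.09 in cko, with overlap. Bhmt, which returns homocysteine to methionine, was at 1.64 and 1.89 against 0.917 and 0.766 FPKM without overlap, with a log2 difference of -0.59 (SE 0.24, adjusted p = 0.314, limma), and 25.3% of its 50-base stretches also occur in other genes, mainly Gm5096 and Bhmt-ps1. Pck1, the first enzyme of glucose synthesis, was at 1.71 and 3.25 against 1.29 and 3.43 FPKM, high in replicate 2 and low in replicate 1 of both groups.

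A few low enzymes differed in opposite directions. Tat, which breaks down tyrosine and is induced by glucocorticoids around birth, had 8 and 10 reads in wt and 32 and 58 in cko, the highest count being in cko replicate 2. On recovered read counts with voom its log2 difference was 2.38 (SE 0.97, unadjusted p = 0.0403, adjusted p = 0.324). Cps1 and Otc catalyse consecutive steps of the urea cycle, and Cps1 had 12 and 0 reads in wt and 25 and 27 in cko, while Otc had 28 and 11 in wt and 7 and 3 in cko. For the pair, voom gave log2 differences of 3.42 (SE 1.72, adjusted p = 0.401) and -1.69 (SE 1.28, adjusted p = 0.561), so that the groups did not overlap but neither difference passed the adjusted threshold.

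**Figure D3:**
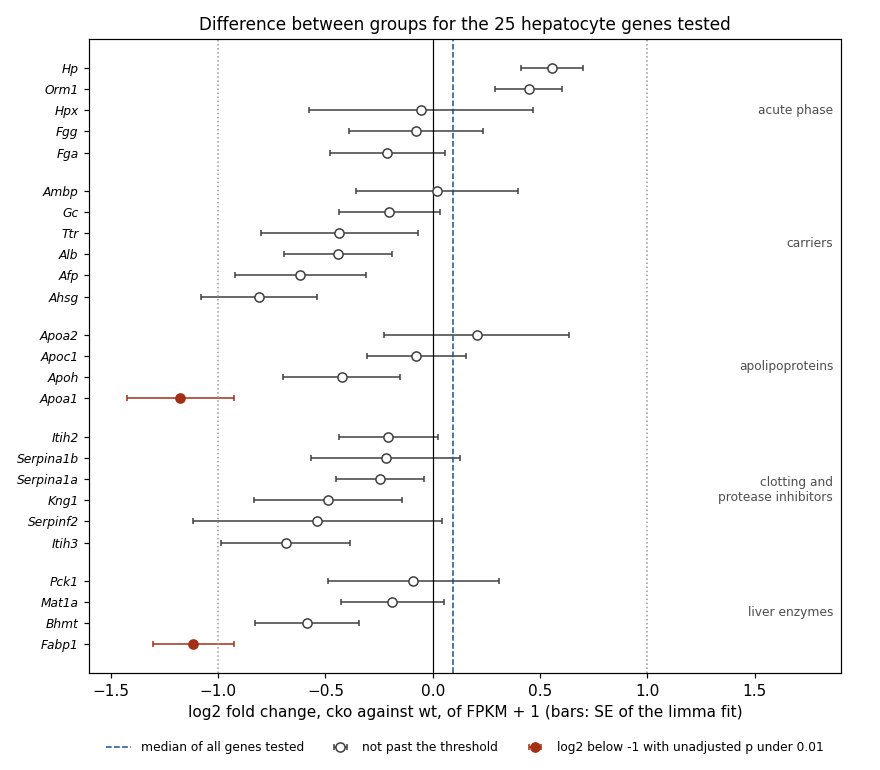
Log2 difference of FPKM + 1 between cko and wt for the 25 genes tested, ordered within each role, with the SE of the limma fit as bars, zero as a solid line, a log2 difference of 1 either way as dotted lines and the median of all genes tested (0.09) as a dashed line. Apoa1 and Fabp1, filled, lie beyond -1, Hp and Orm1 lie right of the dashed line, and most other genes lie left of 0.

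Both thresholds of the study were applied to all 10779 tested genes. At a log2 difference of at least 1 with an adjusted p under 0.05, 0 genes passed in limma (0%), 0 of the 25 members among them, whereas 1768 genes and 5 members had an unadjusted p under 0.05 and voom on recovered reads passed 2 genes, none of them a member. At a log2 difference beyond 1 with an unadjusted p under 0.01, 203 genes passed as higher in cko (1.88%) and 44 as lower (0.408%). Of the 25 members, 0 passed as higher and 2 as lower, Apoa1 and Fabp1. Median-of-ratios scaling changed the split over all genes to 142 higher and 72 lower, moved the median of all genes from 0.09 to -0.01 and left both members past the threshold. A permutation test of 2 against 2 libraries cannot give a p below 0.333, so no exact test of a single gene could reach 0.05.

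The 5 tested acute-phase members had a median log2 difference of -0.05 and the 20 others one of -0.43, against 0.09 over all genes tested. Of the 20 others, 18 had a difference below 0, the exceptions being Ambp and Apoa2. Both cko libraries lay below both wt libraries in 9 of the 25 members, all outside the acute-phase list, against 18.0% of all genes tested. Both cko libraries lay above both wt libraries in Hp and Orm1, 2 of the 25, against 33.6% of all genes tested. With the 16 untested members, 13 of the 41 genes lay lower and 5 higher in cko without overlap, the further higher ones being Tat, Cps1 and Itih1. This share was not taken over all genes measured, tested or not, so the count has no background beside it.

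The wt libraries also differed from each other in these genes. Between wt replicates 2 and 1 the 25 genes had a median log2 difference of 0.60, with 20 of 25 higher in replicate 2, against a median of 0.03 over all genes tested. Between cko replicates 2 and 1 the median was 0.15, against 0.01. Wt replicate 2 was the highest library in 16 of the 25 members (64%) and in 19.6% of all genes tested. The 20 members outside the acute-phase list summed, with the 15 untested ones, to 240 and 388 RPM in wt replicates 1 and 2 and to 186 and 213 in cko, so that the cko mean was 0.636 of the wt mean and 0.832 of wt replicate 1 alone.

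Both calls depended on which libraries were included. Without wt replicate 2 the log2 differences of Apoa1 and Fabp1 became -0.87 and -0.96 and neither passed. Without cko replicate 1 only Fabp1 passed (Apoa1 -1.03), without cko replicate 2 only Apoa1 passed (Fabp1 -0.99), and without wt replicate 1 both passed together with Ahsg and Afp. The median over the 20 others was -0.19 without wt replicate 2 and -0.68 without wt replicate 1. By voom on recovered reads Apoa1 passed at -1.21 (SE 0.29) and Fabp1 did not, at -1.19 (SE 0.36, unadjusted p = 0.0116). Hp stayed between 0.45 and 0.66 and Orm1 between 0.32 and 0.57 whichever library was left out.

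**Figure D4:**
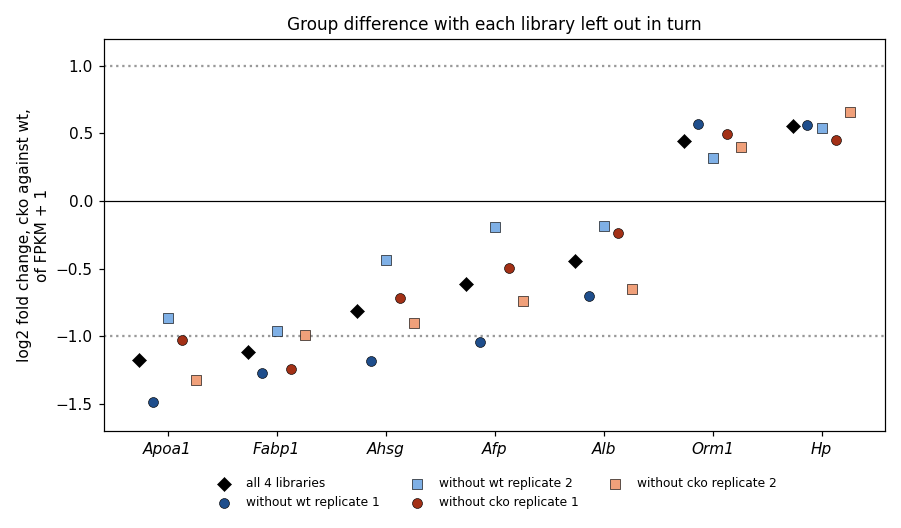
Log2 difference of FPKM + 1 between cko and wt for 7 members with all 4 libraries (diamonds) and with each library left out in turn, with dotted lines at 1 and -1. The differences of Ahsg, Afp and Alb are closest to 0 without wt replicate 2, whereas those of Hp and Orm1 stay above 0 in every case.

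Some markers of other cell types also differed between the groups, but not all of them followed the members across the libraries. Of 16 tested erythroid genes 15 had a difference below 0, with a median of -0.70, and the list summed to 4078 and 2572 FPKM in wt and 1599 and 1713 in cko, so that it was highest in wt replicate 1 and not, as the members were, in wt replicate 2. In 1 alternative erythroid genes were left out and each library was rescaled to the same summed FPKM. The median of all genes then moved from 0.09 to 0.27, and the calls over all genes became 349 higher and 17 lower. Apoa1 at -0.97 and Fabp1 at -0.92 no longer passed. Before rescaling, all genes summed to 491983 and 457127 FPKM in wt and 412778 and 403900 in cko, far above the erythroid sums. Rescaling was not run with erythroid genes kept, so the shift cannot be assigned to erythroid RNA. Of 12 stellate cell and fibroblast genes 4 were tested, all with a difference below 0 and a median of -0.68, and the list summed to 13.2 and 17.6 FPKM in wt and 8.38 and 5.03 in cko, with the highest level in wt replicate 2 like the members. Hgf, Dcn and Col1a1 were its highest genes, and Dcn, which encodes the matrix protein decorin, passed the unadjusted threshold at -1.27. The defining stellate genes Lrat and Des were at no more than 0.298 FPKM, and both were at 0 in cko replicate 2. Of 15 neutrophil genes, which include the most abundant transcripts of these libraries, 5 had a difference above 0 and 10 below, with a median of -0.18. The list summed to 163287 and 139229 FPKM in wt and to 113044 and 93732 in cko. At the unadjusted threshold 2 of the 15 passed as lower, against 0.408% of all genes tested, and 0 as higher. The part of these cells in the differences of the members was not tested.

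Other hepatocyte genes were counted from lists of the same kind. Of 31 further genes of secreted proteins 6 were tested, with a median log2 difference of -0.26. The highest was F10, clotting factor X, at 26.8 and 33.0 FPKM in wt and 67.1 and 90.2 in cko, which passed the unadjusted threshold at 1.36 (SE 0.20, adjusted p = 0.183, limma). F5, clotting factor V, was at 33.9 and 30.2 against 30.4 and 30.9 FPKM, and Apom at 1.29 and 3.78 against 0.843 and 1.34. F10 and F5 were above Alb, the reference for hepatocyte RNA at 6.13 to 12.4 FPKM, in every library. Whether their reads came from hepatocytes was not tested. Of 29 further liver enzyme genes 12 were tested, 6 with a difference above 0 and 6 below, with a median of -0.08, and 0 passed either threshold in limma while 5 had an unadjusted p under 0.05. The highest were Ass1 and Asl of the urea cycle, with log2 differences of 0.65 and 0.45, and Fbp1 of glucose synthesis, at -0.67, and in each the groups did not overlap.

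Of 14 further acute-phase genes 8 were tested, 7 with a difference above 0 and a median of 0.84. Over all 10779 genes tested, 6510 had a difference above 0. The unadjusted threshold was passed as higher by 3 of the 8, against 1.88% of all genes tested. Lrg1, the leucine-rich glycoprotein, was at 797 and 831 FPKM in wt and at 1917 and 1601 in cko, a log2 difference of 1.11 (SE 0.15, adjusted p = 0.183, limma). Lcn2, the neutrophil gelatinase-associated lipocalin, was at 813 and 883 against 1301 and 1035 FPKM, and Il1rn, the interleukin-1 receptor antagonist, at 16.1 and 19.6 against 22.0 and 128. The other two that passed, named here after their values were seen, were Steap4 (2.03) and Saa3 (2.39), a serum amyloid A gene also made by macrophages, which had 30 and 2 reads in wt and 125 and 514 in cko. Among the rest of the list, Lbp, the lipopolysaccharide binding protein, was at 33.0 and 34.7 FPKM in wt and 46.9 and 32.7 in cko, with overlap. Mt1, a metallothionein, was at 5.06 and 3.79 against 6.98 and 7.12 FPKM and Itih4, a relative of Itih3, at 2.00 and 1.44 against 0.763 and 0.989. The 6 untested genes, Apcs, Hamp, Fgl1, Serpina3n, Crp and Cp, were at no more than 1.15 FPKM in any library. Lrg1 and Lcn2, like Hp, were thus among the abundant transcripts and higher in both cko libraries. Of all genes tested, abundant or not, 33.6% were higher in both cko libraries. Fga, Fgb, Fgg and Hpx stayed at no more than 6.73 FPKM with overlapping groups.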

How the data were processed

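The authors deposited FPKM values per gene, 1 file per library, for the same 24706 genes, and the study's methods call them RPKM. Per the submitters' processing notes, Bowtie2 2.2.3, TopHat2 2.0.12, HTSeq 0.6.0 and build mm9 were used, yet 92.6% of the gene positions in the files are identical to GENCODE M21 (GRCm38), which was used here for lengths and neighbours. They had been scaled to each library's counted reads only. They were whole multiples of 1 read, within 0.02 of a whole number in 99.97% or more of the values of genes with a single exon block. Library totals could therefore be recovered, and so could the reads of 98.1% of genes. Those of 33 of the 41 members came from annotated lengths and those of 8 from the nearest fitting length.

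Samples were grouped by their labels. Genes whose mean reached 1 FPKM were compared with limma 3.58.1 in R 4.3.3 (lmFit, eBayes with a trend) on log2(FPKM + 1), which understates changes of low genes, without covariates and with Benjamini-Hochberg adjustment over all 10779 genes. Alternatives were a pseudocount of 0.1, no filter, a mean of at least 5 FPKM, median-of-ratios scaling, no trend and a replicate block. Further ones were removal of erythroid genes with rescaling to equal summed FPKM, each library left out, and voom on the recovered reads (mean of 10 or more). After seeing the data, a crossed block and the log2 ratio of group mean FPKM were added. Members and gene lists were chosen with earlier results of these data known. All members were named, and of other lists the 3 genes with the highest mean FPKM, Pdcd1, Lyz2 and the few others the text says. Intervals cover counting error only. Python 3.11.15 and matplotlib 3.10.9 were used for tables and figures.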

Additional observations from a re-analysis of the deposited data

How the results depend on the processing

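No gene passed the adjusted threshold in any alternative other than the crossed block below and voom, which passed 2 (0.0147 was its smallest adjusted p). The count at the unadjusted threshold fell to 126 with a mean of at least 5 FPKM, where fewer genes were tested, and ranged from 136 to 472 with a library left out. The members past it numbered 0 with erythroid genes left out, 1 by voom (Apoa1) and 0 to 4 with a library left out. The median of the acute-phase members was 0.50 with a mean of at least 5 FPKM, where only Hp and Orm1 were left. With median-of-ratios scaling it was -0.14, and with erythroid genes left out and the libraries rescaled 0.10. By voom, where Fgb was also tested, it was 0.27, and with a library left out it ranged from -0.22 to 0.32. Other causes were not tested. The median of the other members was below 0 in every alternative run. It moved from -0.43 to -0.19 without wt replicate 2 and to -0.68 without wt replicate 1. All shifts were less than its SD between replicates, 0.32. That SD includes the gap between the wt libraries, which also sets the shift when either of them is left out. It therefore cannot show that the median is stable. Of 307 values of the 25 members under alternatives, 21 values of 11 members that did not pass changed sign, 14 of them with a library left out. The log2 ratios of group mean FPKM among these values have no p-value. They cannot be placed on the unadjusted threshold, so values that kept their side of it are not counted.

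With a replicate block, 258 genes and 2 members passed the unadjusted threshold, and 0 genes the adjusted one. Libraries of the same number did not deviate together, with a correlation of -0.16 across 10779 genes. A crossed replicate block, added after seeing the data, gave 363 genes, 2 members and 1 gene at the adjusted threshold. With 2 libraries per group, differences of low members rest on few reads, and 1 read adds 0.0450 to 0.0565 FPKM to a gene of 1 kb.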

Other observations

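Genes of acute-phase signalling were measured in the same libraries. Of 14 such genes 11 were tested, 9 with a log2 difference above 0 and a median of 0.76, and 7 of the 11 were higher in both cko libraries without overlap, against 33.6% of all genes tested. The highest were Osm, the cytokine oncostatin M (228 and 250 FPKM in wt, 351 and 515 in cko), Il1b (98.1 and 43.2 against 151 and 594) and Socs3, the feedback inhibitor of STAT3 signalling (37.1 and 16.2 against 65.3 and 216). Cko replicate 2 was the highest library in 8 of the 11, and in 33.8% of all genes tested. Tnf, named after its values were seen, was the only one to pass the unadjusted threshold, at 1.18 (SE 0.22, adjusted p = 0.199, limma).

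The lists of other cells differed in direction. Of 11 liver endothelial genes 10 were tested, 5 with a difference above 0 and 5 below and a median of 0.00, and the highest, Ehd3, Fcgr2b and Lyve1, overlapped between groups. Stab2, a scavenger receptor named after its values were seen, passed the unadjusted threshold at 1.97, from 0.319 and 0.315 FPKM in wt to 3.61 and 4.76 in cko. Of 8 cholangiocyte genes 2 were tested, Prom1 and Spp1, and Krt19, Krt7, Epcam and Sox9 were at no more than 0.331 FPKM. Of 16 monocyte and macrophage genes 15 were tested, 10 with a difference above 0 and 5 below and a median of 0.12, led by Ly6c2, C1qa and C1qb. Of 13 genes of other blood cells 10 were tested, 2 with a difference above 0 and 8 below and a median of -0.34, led by Prg2, Cd79a and Nkg7. In 5 of these 10 both cko libraries lay below both wt libraries, against 18.0% of all genes tested. None of the 25 genes tested from these last lists passed either threshold in limma. An unadjusted p under 0.05 was found for 2 monocyte and macrophage genes, higher in cko, and for 4 genes of other blood cells, all lower.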
